A study of Mus musculus with 16 samples.

Results

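The 46 genes described here are markers of leukocytes, the white blood cells, and of Kupffer cells, the resident macrophages of the liver, measured in mouse liver after a carcinogen with or without phenobarbital. They were given as a list of gene symbols: 3 pan-leukocyte genes, 14 myeloid genes, 9 Kupffer cell genes, 12 genes of T and natural killer (NK) cells, 3 B cell genes and 5 genes of antigen presentation. Through the RefSeq accessions of the array, 44 of them had a probe, while Cd8b1 and H2-Eb1 matched none. Each gene was read by its brightest probe, and 43 were tested, of 13296 genes tested and 19096 genes with a probe. Cd79a was the member with a probe but no test, since its probe was well above background on 3 WT arrays (1 of DEN alone and 2 of DEN + PB) and on 1 KO array, of DEN alone.

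All 16 mice were males that received N-diethylnitrosamine (DEN), a genotoxic liver carcinogen, at 90 mg/kg by intraperitoneal injection at 5 weeks of age, and all livers were taken at 57 weeks, outside tumours. Wild type (WT) mice were C57BL/6J, and knockout (KO) mice carried the germ-line null allele tm1Flv of the Jackson Laboratory stock, which lacks Gadd45b, a stress-induced scaffold protein of MAP kinase signalling, in every cell. Mice of the DEN groups had no further agent, and mice of the DEN + PB groups drank water with phenobarbital (PB), a liver tumour promoter, at 0.5 g/l from 7 to 57 weeks of age. This gave the WT groups WT DEN and WT DEN + PB and the KO groups KO DEN and KO DEN + PB, with 4 mice and 4 arrays each, and no group without DEN. The stock name of the KO line in the study's methods holds a second strain beside C57BL/6, and the line is elsewhere described as on C57BL/6J, so the null allele and a strain difference cannot be told apart. Whether any probe lies over a sequence that differs between strains was not tested.

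Kupffer cells line the liver sinusoids, where they take up particles, bacteria and old red blood cells from the portal blood through complement and scavenger receptors. Beside them the liver holds monocytes and monocyte-derived macrophages, neutrophils, many T and NK cells, few B cells, and dendritic cells. Macrophages, dendritic cells and B cells present peptides on class II molecules of the major histocompatibility complex to T cells.

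Values are given as relative signal, which is the processed signal of a probe divided by the 75th percentile of all probes of its array, so that 1 equals that percentile, and are listed in the order of replicates 1 to 4. It compares arrays for 1 probe and gives no order between genes. Changes are log2 differences between group means of 4 arrays with the standard error (SE) of the linear model, and a gene was called at an adjusted p under 0.05 over all probes tested together with a change of at least 1.5-fold. With 4 arrays against 4, an exact permutation test cannot give a two-sided p under 0.0286. In whole tissue, fewer cells of a type and less RNA per cell cannot be told apart.

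The array percentile used for scaling was 137 to 294 in processed signal on the 16 arrays, 58.3 to 67.7% of spots were well above background, and no spot was saturated. Gadd45b, which checks the genotype labels, was well above background on 8 of 8 WT and 0 of 8 KO arrays, and was at least 32.5-fold higher in WT (two-sided exact permutation test, p = 0.000155). All 7 hepatocyte markers with a probe were well above background on all 16 arrays, as were 37 of the 44 leukocyte and Kupffer cell genes. The array of WT DEN replicate 3 stood apart: it was the highest of its group for 28 of the 43 members tested (65.1%), against 46.1% of all genes tested, among them 7 of 9 Kupffer, 8 of 14 myeloid, 8 of 11 T and NK and 2 of 2 B cell genes. Other arrays leaned too. WT DEN + PB replicate 4 was highest for 22 members (51.2%, against 38.9%) and replicate 3 of that group lowest for 21 (48.8%, against 24.2%). KO DEN + PB replicate 4 was lowest for 20 (46.5%, against 27.9%). Without each of these 3 arrays in turn, 17, 18 and 15 members were called under DEN + PB, in place of 22. Among the DEN arrays, WT DEN replicate 2 was lowest for 20 members (46.5%, against 30.6%) and KO DEN replicate 1 for 19 (44.2%, against 25.6%). KO DEN replicate 4 was highest for 18 (41.9%, against 20.1%). Without each of them in turn, 9, 5 and 7 members were called under DEN, in place of 8. Since WT DEN replicate 3 stood apart for most members, counts of called members under DEN are also given without it.

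Most Kupffer cell genes were lower in KO under DEN + PB, and some also under DEN alone. Under DEN alone 4 of the 9 were called lower in KO than in WT and none higher, and under DEN + PB 8 of 9 were called lower and none higher. Without WT DEN replicate 3 the Kupffer genes called lower were 3 and 8. Over all members, 8 of 43 (18.6%) were called lower under DEN, against 1.7% of all genes tested, and 22 of 43 (51.2%) under DEN + PB, against 5.81%. Without WT DEN replicate 3 these counts of members were 5 and 22. No member was called higher in KO, against 1.02% and 1.73% of all genes. The median log2 change of the Kupffer genes was -1.01 under DEN and -1.33 under DEN + PB, and that of all genes tested was -0.04 and 0.03. These comparisons use separate mice, and 7 of the 8 members called under DEN were also called under DEN + PB, which is 87.5% of the first list and 31.8% of the second. Of all genes called in either direction, the shared ones were 57.1% and 20.6%.

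**Figure D1:**
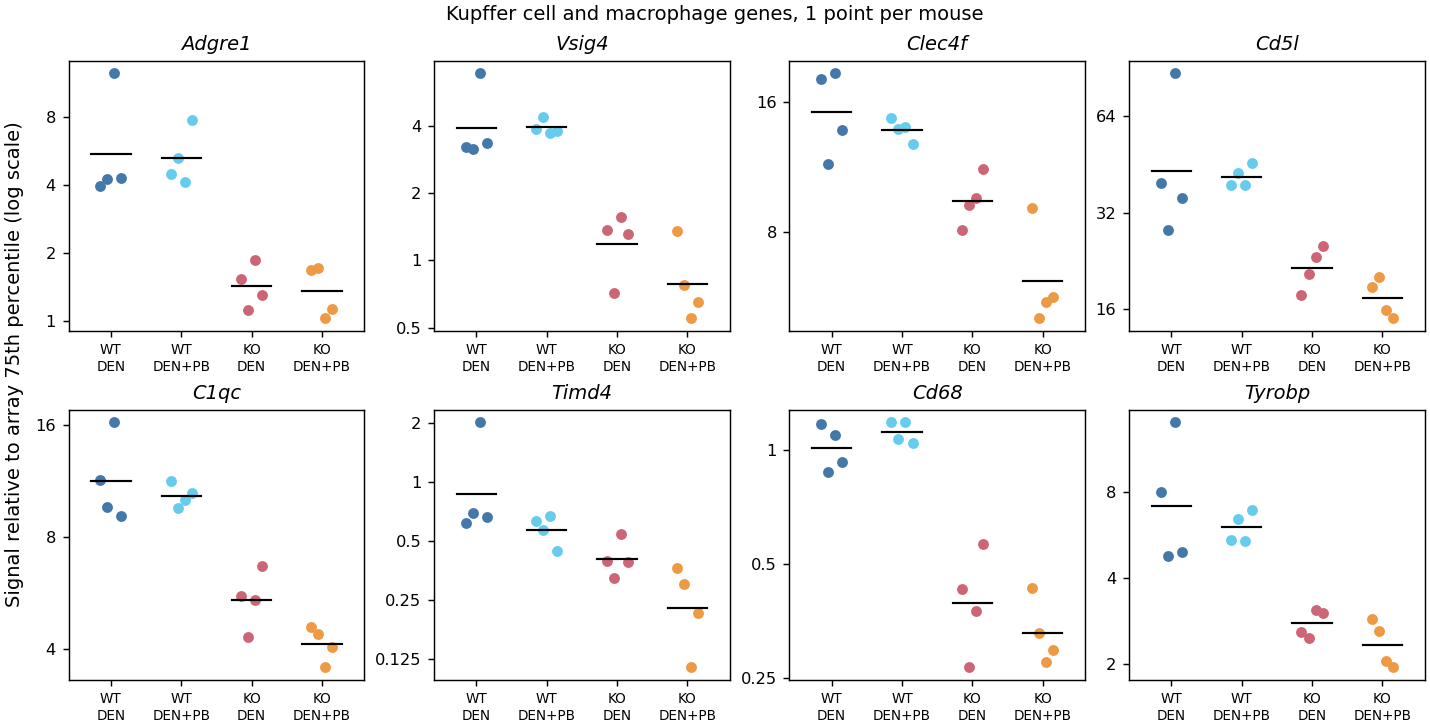
Signal relative to the 75th percentile of each array (log2-spaced axis) for 8 Kupffer cell and macrophage genes in the 4 groups, with 1 point per mouse and a black line at the mean of the log2 values. All 8 KO points lie below all 8 WT points for 7 of the 8 genes, and Timd4 is the exception, with 1 KO DEN mouse at 0.542 and WT DEN + PB mice from 0.442.

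Adgre1, which encodes F4/80, the classical surface antigen of mouse macrophages, had relative signals of 3.98, 4.28, 12.5 and 4.29 in WT DEN, and 4.5, 5.26, 4.15 and 7.77 in WT DEN + PB. Adgre1 gave 1.54, 1.12, 1.87 and 1.31 in KO DEN, and 1.69, 1.72, 1.03 and 1.13 in KO DEN + PB. Every KO array was below every WT array, and the log2 change was -1.94 ± 0.33 (adjusted p = 0.0056) under DEN and -1.95 ± 0.33 (adjusted p = 0.00206) under DEN + PB. WT DEN replicate 3 lay far above the other arrays of its group, and without it the change under DEN was -1.54 (adjusted p = 0.00676).

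Vsig4, the complement receptor by which Kupffer cells capture bacteria from the blood, gave relative signals of 3.22, 3.14, 6.85 and 3.33 in WT DEN, and 3.88, 4.39, 3.69 and 3.79 in WT DEN + PB. Vsig4 measured 1.36, 0.717, 1.56 and 1.31 in KO DEN, and 1.35, 0.774, 0.55 and 0.651 in KO DEN + PB. The WT arrays again lay above all KO arrays. Its log2 change was -1.71 ± 0.30 (adjusted p = 0.00737) under DEN, or -1.44 (adjusted p = 0.0219) without WT DEN replicate 3, and -2.33 ± 0.30 (adjusted p = 0.000315) under DEN + PB, a fold of 5.02.

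Clec4f, a galactose-binding lectin found on mouse Kupffer cells, read 18.1, 11.5, 18.7 and 13.8 in WT DEN, and 14.7, 13.9, 14 and 12.8 in WT DEN + PB. Clec4f gave 8.07, 9.24, 9.57 and 11.2 in KO DEN, and 9.09, 5.03, 5.48 and 5.64 in KO DEN + PB. The groups of the 2 genotypes did not overlap under either treatment, but under DEN the log2 change of -0.69 ± 0.20 (adjusted p = 0.0687) did not pass the test, and under DEN + PB it was -1.17 ± 0.20 (adjusted p = 0.00208). Cd5l, a secreted scavenger protein of tissue macrophages, read 39.8, 28.4, 87.2 and 35.5 in WT DEN, and 39, 42.6, 39 and 45.8 in WT DEN + PB. Cd5l gave 17.8, 20.7, 23.3 and 25.2 in KO DEN, and 18.8, 20.2, 15.9 and 15 in KO DEN + PB. It was called lower in KO under DEN, at -1.0 ± 0.26 (adjusted p = 0.0451), and under DEN + PB, at -1.26 ± 0.26 (adjusted p = 0.00731). The call under DEN was lost in 13 of the 16 fits that each left out 1 array, among them that without WT DEN replicate 3, at -0.67 (adjusted p = 0.0696).

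The 3 chains of C1q, the recognition molecule of the classical complement pathway that macrophages make, were all lower in KO under DEN + PB, and C1qc was also called under DEN. C1qc had relative signals of 11.4, 9.63, 16.3 and 9.11 in WT DEN, and 11.3, 9.58, 10.1 and 10.5 in WT DEN + PB. C1qc gave 5.55, 4.3, 5.42 and 6.7 in KO DEN, and 4.59, 4.38, 3.56 and 4.05 in KO DEN + PB. No KO array reached the lowest WT array, and the log2 changes were -1.06 ± 0.18 (adjusted p = 0.00636) and -1.33 ± 0.18 (adjusted p = 0.000498) under DEN and DEN + PB. C1qa read 4.27, 2.94, 2.68 and 5.22 in WT DEN, and 5.61, 4.92, 2.37 and 4.19 in WT DEN + PB. C1qa measured 1.98, 1.01, 2.2 and 2.79 in KO DEN, and 1.76, 1.82, 0.938 and 1.35 in KO DEN + PB. C1qb read 2.58, 1.36, 2.07 and 2.49 in WT DEN, and 2.96, 2.45, 1.71 and 2.09 in WT DEN + PB. C1qb read 0.861, 0.598, 1.22 and 1.75 in KO DEN, and 0.898, 1, 0.677 and 0.71 in KO DEN + PB. Under DEN the genotypes overlapped for both, and neither change passed, at -0.96 ± 0.34 (adjusted p = 0.122) for C1qa and -1.01 ± 0.29 (adjusted p = 0.0706) for C1qb. Under DEN + PB the changes were -1.52 ± 0.34 (adjusted p = 0.0115) for C1qa and -1.47 ± 0.29 (adjusted p = 0.00633) for C1qb.

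Timd4, a phosphatidylserine receptor that marks Kupffer cells of embryonic origin, read 0.618, 0.691, 2.01 and 0.662 in WT DEN, and 0.628, 0.565, 0.667 and 0.442 in WT DEN + PB. Timd4 read 0.393, 0.323, 0.542 and 0.39 in KO DEN, and 0.364, 0.303, 0.113 and 0.214 in KO DEN + PB. Its WT DEN replicate 3 lay far above the other WT arrays. Under DEN the change of -1.10 ± 0.37 (adjusted p = 0.11) was not called, and under DEN + PB it was -1.32 ± 0.37 (adjusted p = 0.0414), a call lost in 9 of the 16 fits that each left out 1 array. Marco, a scavenger receptor, was the Kupffer gene that did not follow the others, and read 8.29, 4.69, 89.6 and 18 in WT DEN, and 7.79, 12.8, 6.73 and 3.8 in WT DEN + PB. Marco read 6.71, 11.5, 11.5 and 11.9 in KO DEN, and 5.62, 30.3, 3.57 and 7.64 in KO DEN + PB. A single array, WT DEN replicate 3, was far above the rest, the groups overlapped, and the log2 change was -0.64 ± 0.75 (adjusted p = 0.674) under DEN and 0.22 ± 0.75 (adjusted p = 0.893) under DEN + PB.

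Promoter sequence is shown for 4 genes that were lower in KO and for which RefSeq gave a start site. All 4 held letters searched for, so that these can be seen. Others lower in KO, such as Ptprc, Lyz2, S100a9, Fcer1g and C1qb, held no match. The windows are the 250 bases before the start site in RefSeq on GRCm38.p6, written 5′ to 3′ on the strand of the gene. The search was for GAGGAAG, the purine-rich letters bound by PU.1, a transcription factor of myeloid and B cells, and for CCAAT, the letters bound by NF-Y, both on either strand. Capitals mark the match, which is CTTCCTC, the reverse complement of GAGGAAG, in Cd5l (chr3:87357631-87357880, plus strand), C1qc (chr4:136892915-136893164, minus strand) and Trem2 (chr17:48346151-48346400, plus strand), as well as CCAAT itself in Trem2 and its reverse complement ATTGG in H2-Aa (chr17:34287824-34288073, minus strand).
Cd5l: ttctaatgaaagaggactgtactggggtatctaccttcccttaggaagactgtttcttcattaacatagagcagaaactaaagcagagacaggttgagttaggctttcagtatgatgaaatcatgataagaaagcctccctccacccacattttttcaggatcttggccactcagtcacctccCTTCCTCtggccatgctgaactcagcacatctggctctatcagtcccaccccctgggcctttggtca
C1qc: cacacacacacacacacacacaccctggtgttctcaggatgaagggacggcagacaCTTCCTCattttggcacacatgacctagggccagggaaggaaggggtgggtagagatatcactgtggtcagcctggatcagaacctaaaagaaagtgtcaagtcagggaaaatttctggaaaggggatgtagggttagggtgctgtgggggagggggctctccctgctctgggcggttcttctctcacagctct
Trem2: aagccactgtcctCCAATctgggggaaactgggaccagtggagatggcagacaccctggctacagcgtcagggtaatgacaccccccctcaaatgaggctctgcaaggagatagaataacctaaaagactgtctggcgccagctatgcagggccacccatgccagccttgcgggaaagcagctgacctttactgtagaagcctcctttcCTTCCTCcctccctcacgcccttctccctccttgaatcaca
H2-Aa: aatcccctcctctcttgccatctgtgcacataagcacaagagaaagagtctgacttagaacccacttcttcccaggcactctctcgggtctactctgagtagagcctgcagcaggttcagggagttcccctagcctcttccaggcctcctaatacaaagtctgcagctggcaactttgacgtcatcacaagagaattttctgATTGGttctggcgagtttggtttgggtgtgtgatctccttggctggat
The matches begin 67 bases before the start site in Cd5l, 194 in C1qc, 237 (CCAAT) and 41 (CTTCCTC) in Trem2 and 48 in H2-Aa. Of the 34 members in the promoter table, 9 held GAGGAAG and 11 held CCAAT, while 10.4% and 34.5% of 27025 promoters held them. The window of Vsig4, the gene with the most negative change, held neither. A match describes letters in a window and shows no binding.

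Of the 14 myeloid genes, 3 were called lower in KO under DEN (2 without WT DEN replicate 3) and 9 under DEN + PB, with median log2 changes of -0.02 and -1.07. These were 21.4% and 64.3% of the list, against 1.7% and 5.81% of all genes tested. The 3 called under DEN were macrophage genes that were lower in KO with or without PB. Cd68, a lysosomal glycoprotein of macrophages, read 1.17, 0.874, 1.09 and 0.925 in WT DEN, and 1.18, 1.07, 1.18 and 1.04 in WT DEN + PB. Cd68 gave 0.429, 0.266, 0.375 and 0.562 in KO DEN, and 0.43, 0.328, 0.275 and 0.296 in KO DEN + PB. All KO arrays were below all WT arrays, and the change was -1.35 ± 0.20 (adjusted p = 0.00247) under DEN and -1.77 ± 0.20 (adjusted p = 0.000144) under DEN + PB. Tyrobp, the adaptor DAP12 that carries the signal of TREM2 and other myeloid receptors, read 7.97, 4.78, 14 and 4.93 in WT DEN, and 5.44, 6.46, 5.4 and 6.9 in WT DEN + PB. Tyrobp gave 2.59, 2.47, 3.09 and 3.02 in KO DEN, and 2.87, 2.62, 2.06 and 1.95 in KO DEN + PB. It was lower in KO under both treatments, at -1.36 ± 0.27 (adjusted p = 0.0135) and -1.36 ± 0.27 (adjusted p = 0.00594), and also passed under DEN without WT DEN replicate 3 (-1.04, adjusted p = 0.0204).

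Csf1r, the receptor for the growth factor on which macrophages depend, read 3.73, 3.04, 2.96 and 3.32 in WT DEN, and 4, 3.34, 2.84 and 3.29 in WT DEN + PB. Csf1r read 2.07, 1.55, 1.97 and 2.37 in KO DEN, and 1.93, 1.88, 1.17 and 1.3 in KO DEN + PB. The genotypes did not overlap, with changes of -0.73 ± 0.19 (adjusted p = 0.0465) under DEN and -1.12 ± 0.19 (adjusted p = 0.00194) under DEN + PB. Under DEN another Csf1r probe that was well above background on all 16 arrays changed by -0.92 and did not pass (adjusted p = 0.148), and the call was lost in 13 of the 16 fits that each left out 1 array, so that it is uncertain. Fcer1g, the signalling chain shared by Fc receptors, read 3.34, 2.2, 3.57 and 2.61 in WT DEN, and 2.5, 2.97, 2.92 and 3.6 in WT DEN + PB. Fcer1g measured 1.63, 2.28, 2.13 and 2.01 in KO DEN, and 1.96, 2.24, 1.84 and 1.48 in KO DEN + PB. Its changes were -0.53 ± 0.19 (adjusted p = 0.124) under DEN and -0.67 ± 0.19 (adjusted p = 0.0381) under DEN + PB, and the latter was the smallest called change of a member. That call was lost in 6 of the 16 fits that each left out 1 array and in 5 of 13 alternatives.

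Lyz2, the lysozyme of macrophages and neutrophils, read 0.364, 0.375, 0.816 and 0.55 in WT DEN, and 0.633, 0.675, 0.279 and 0.598 in WT DEN + PB. Lyz2 read 0.241, 0.106, 0.269 and 0.255 in KO DEN, and 0.167, 0.163, 0.0918 and 0.106 in KO DEN + PB. WT DEN + PB replicate 3 lay below the other WT arrays of both groups, yet above every KO array. The change under DEN, -1.28 ± 0.36 (adjusted p = 0.0612), did not pass, and that under DEN + PB was -2.02 ± 0.36 (adjusted p = 0.00286). Lyz2 is the single member on the same chromosome as Gadd45b, and whether its probe also binds the closely related Lyz1 was not tested.

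Trem2, a lipid-sensing receptor of macrophages, read 1.13, 0.906, 0.676 and 0.826 in WT DEN, and 1.35, 1.61, 1.08 and 1.91 in WT DEN + PB. Trem2 measured 0.697, 0.899, 0.733 and 1.03 in KO DEN, and 0.668, 0.397, 0.469 and 0.594 in KO DEN + PB. The 4 lowest values were those of KO DEN + PB, and the genotypes did not overlap under PB, with a change of -1.48 ± 0.22 (adjusted p = 0.000829), against -0.07 ± 0.22 (adjusted p = 0.892) under DEN. Itgam, which encodes CD11b of neutrophils and monocytes, read 0.025, 0.046, 0.0791 and 0.038 in WT DEN, and 0.0551, 0.0515, 0.0655 and 0.0699 in WT DEN + PB. Itgam read 0.0623, 0.0383, 0.0544 and 0.0522 in KO DEN, and 0.0284, 0.034, 0.0309 and 0.0266 in KO DEN + PB. It changed by 0.24 ± 0.26 (adjusted p = 0.648) under DEN and -1.01 ± 0.26 (adjusted p = 0.0289) under DEN + PB, where the probe was well above background on 4 of 4 WT and 1 of 4 KO arrays. With another background correction, the normexp model leaving out spots with outlying background, the latter change was 0.067 (adjusted p = 0.792), so the call and its direction are uncertain. Under DEN alone the genotypes overlapped for both genes.

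S100a8 and S100a9, which together form calprotectin, an abundant cytosolic protein of neutrophils and monocytes, were lower in KO under DEN + PB and did not pass the test under DEN. S100a8 read 0.502, 0.497, 1.26 and 0.459 in WT DEN, and 0.639, 0.579, 0.732 and 0.561 in WT DEN + PB. S100a8 read 0.687, 0.853, 0.54 and 0.432 in KO DEN, and 0.292, 0.186, 0.36 and 0.191 in KO DEN + PB. S100a9 read 3.62, 3.51, 7.44 and 3.16 in WT DEN, and 4.55, 3.66, 4.1 and 3.34 in WT DEN + PB. S100a9 gave 5.15, 7.18, 4.65 and 3.83 in KO DEN, and 2.39, 1.56, 2.5 and 1.36 in KO DEN + PB. The changes under DEN + PB were -1.34 ± 0.31 (adjusted p = 0.0148) for S100a8 and -1.04 ± 0.27 (adjusted p = 0.0297) for S100a9, and those under DEN were -0.02 ± 0.31 (adjusted p = 0.978) and 0.29 ± 0.27 (adjusted p = 0.599). Under DEN + PB the S100a9 call was lost in 5 of the 16 fits that each left out 1 array and in 4 of 13 alternatives. The S100a8 call there was lost in 2 such fits and in 2 alternatives. The other 5 myeloid genes, Itgax, Ccr2, Cx3cr1, Gpnmb and Ly6c2, were called in neither genotype comparison, and their changes lay between -1.09 (Gpnmb under DEN + PB) and 0.99 (Cx3cr1 under DEN).

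**Figure D2:**
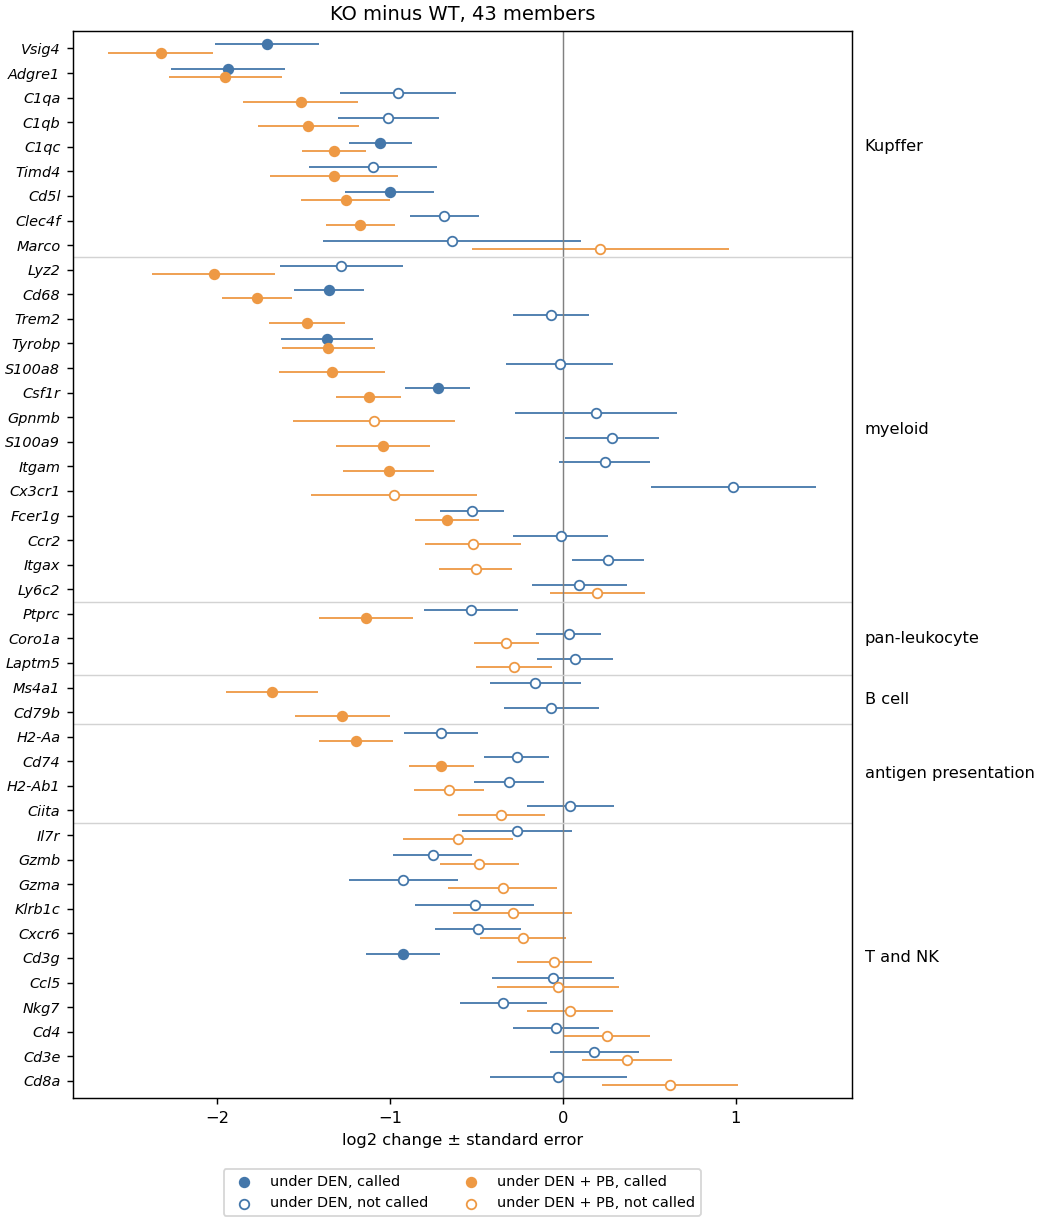
Log2 change between KO and WT (KO minus WT) with its standard error for the 43 members tested, under DEN (blue) and under DEN + PB (orange), grouped by list and ordered by the change under DEN + PB; filled points were called. The called points are all to the left of 0, 8 under DEN and 22 under DEN + PB, and most lie among the Kupffer and myeloid genes.

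Only under DEN + PB was a pan-leukocyte gene called, 1 of 3, against 5.81% of all genes called lower. It was Ptprc, which encodes CD45 of all leukocytes. It read 1.18, 1.35, 3.22 and 1.25 in WT DEN, and 1.54, 1.67, 1.82 and 2.72 in WT DEN + PB. Ptprc measured 0.905, 1.27, 1.24 and 1.03 in KO DEN, and 0.808, 0.817, 1.06 and 0.768 in KO DEN + PB. WT DEN replicate 3 lay above the other arrays of its group, and the changes were -0.53 ± 0.27 (adjusted p = 0.29) under DEN and -1.14 ± 0.27 (adjusted p = 0.0185) under DEN + PB. Coro1a, an actin-binding protein of leukocytes, read 3.14, 2.22, 3.75 and 2.46 in WT DEN, and 2.76, 2.54, 2.76 and 2.54 in WT DEN + PB. Coro1a read 2.39, 3.97, 2.57 and 2.88 in KO DEN, and 2.01, 2.34, 2.34 and 1.8 in KO DEN + PB. The genotypes overlapped under DEN and did not under DEN + PB, and neither change passed, at 0.03 ± 0.19 (adjusted p = 0.941) and -0.33 ± 0.19 (adjusted p = 0.312). Laptm5, a lysosomal protein of leukocytes, ranged from 0.216 to 0.588 over the 16 arrays and changed by 0.07 ± 0.22 (adjusted p = 0.895) and -0.29 ± 0.22 (adjusted p = 0.461).

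Both B cell genes tested were lower in KO under DEN + PB, against 5.81% of all genes called lower, and near 0 under DEN. Ms4a1, which encodes CD20, read 0.429, 0.481, 0.891 and 0.385 in WT DEN, and 0.583, 0.473, 0.583 and 0.593 in WT DEN + PB. Ms4a1 read 0.461, 0.544, 0.596 and 0.303 in KO DEN, and 0.238, 0.145, 0.189 and 0.137 in KO DEN + PB. The 4 KO DEN + PB arrays lay below all other 12, and the change from WT was -1.68 ± 0.26 (adjusted p = 0.00126) under DEN + PB, against -0.16 ± 0.26 (adjusted p = 0.78) under DEN. Cd79b, a signalling chain of the B cell receptor, read 1.25, 1.03, 2.83 and 1.3 in WT DEN, and 1.58, 1.51, 1.69 and 1.58 in WT DEN + PB. Cd79b measured 1.25, 1.91, 1.49 and 1.11 in KO DEN, and 0.796, 0.612, 0.84 and 0.451 in KO DEN + PB. The KO DEN + PB arrays were again the 4 lowest, with changes of -1.28 ± 0.28 (adjusted p = 0.01) under DEN + PB and -0.07 ± 0.28 (adjusted p = 0.917) under DEN. Cd79a, the partner chain of Cd79b, had relative signals between 0.0153 and 0.0492, mostly not well above background, and was not tested.

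Of the 4 antigen presentation genes tested, 2 were lower in KO under DEN + PB and none under DEN, where 1 had an unadjusted p under 0.05 in limma. Among all genes tested, 5.81% were called lower under DEN + PB and 1.7% under DEN. H2-Aa, a class II alpha chain, read 0.773, 0.649, 0.897 and 0.877 in WT DEN, and 0.927, 0.907, 0.917 and 1 in WT DEN + PB. H2-Aa measured 0.45, 0.323, 0.5 and 0.766 in KO DEN, and 0.402, 0.432, 0.496 and 0.323 in KO DEN + PB. Under DEN the change of -0.71 ± 0.21 (adjusted p = 0.0808) did not pass, and under DEN + PB, where the genotypes were clear of each other, it was -1.20 ± 0.21 (adjusted p = 0.0031). Cd74, the invariant chain that guides class II molecules, read 14.8, 9.99, 8.74 and 15.8 in WT DEN, and 16.5, 16.4, 13.5 and 15.2 in WT DEN + PB. Cd74 gave 9.25, 8.44, 9.76 and 12.7 in KO DEN, and 9.43, 10.5, 9.31 and 8.51 in KO DEN + PB. Its changes were -0.27 ± 0.19 (adjusted p = 0.451) under DEN and -0.70 ± 0.19 (adjusted p = 0.0332) under DEN + PB. The Cd74 call was lost in 7 of the 16 fits that each left out 1 array and in 3 of 13 alternatives, so it is uncertain. H2-Ab1, the beta chain that pairs with H2-Aa, read 10.5, 7.78, 6.94 and 9.64 in WT DEN, and 9.29, 9.81, 8.67 and 15.2 in WT DEN + PB. H2-Ab1 gave 6.47, 6.55, 6.63 and 8.21 in KO DEN, and 6.75, 6.26, 8.67 and 5.22 in KO DEN + PB. It did not pass, at -0.31 ± 0.20 (adjusted p = 0.41) and -0.66 ± 0.20 (adjusted p = 0.0603). The latter passed in 5 alternatives, with adjusted p from 0.018 (unscaled table) to 0.0431 (percentile over probes well above background on all arrays). Ciita, the master activator of class II transcription, read 0.132, 0.0886, 0.12 and 0.122 in WT DEN, and 0.133, 0.131, 0.178 and 0.16 in WT DEN + PB. Ciita gave 0.0946, 0.127, 0.0959 and 0.168 in KO DEN, and 0.0892, 0.107, 0.204 and 0.0939 in KO DEN + PB. Its groups overlapped, with changes of 0.04 ± 0.25 (adjusted p = 0.944) and -0.36 ± 0.25 (adjusted p = 0.42).

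Few T and NK cell genes were called. Of 11 tested, 1 was called lower in KO under DEN, which is 9.09%, against 1.7% of all genes, and none without WT DEN replicate 3. Under DEN + PB none was called, against 5.81% of all genes lower. There 0 of the 11 and 3101 of all 13296 genes had an unadjusted p under 0.05 in limma. The median log2 changes were -0.34 under DEN and -0.05 under DEN + PB. Under DEN 10 of the 11 were below 0, and 3 of them had an unadjusted p under 0.05, as had 2413 of all 13296 genes. All KO arrays were below all WT arrays for 3 of the 11, against 6.34% of all genes. Under DEN + PB 4 were above 0 and 7 below. Gzma and Klrb1c met the filter through the WT groups alone, with 3 of 4 arrays well above background in each KO group. Cd3e, a chain of the T cell receptor complex, read 0.277, 0.155, 0.285 and 0.142 in WT DEN, and 0.169, 0.171, 0.146 and 0.169 in WT DEN + PB. Cd3e gave 0.17, 0.182, 0.254 and 0.363 in KO DEN, and 0.208, 0.211, 0.259 and 0.173 in KO DEN + PB. Its changes were 0.18 ± 0.26 (adjusted p = 0.742) under DEN and 0.37 ± 0.26 (adjusted p = 0.417) under DEN + PB, the latter with all KO arrays above all WT arrays. Cd3g, another chain of that complex, read 0.151, 0.0974, 0.204 and 0.118 in WT DEN, and 0.0814, 0.098, 0.0691 and 0.104 in WT DEN + PB. Cd3g read 0.062, 0.0597, 0.0963 and 0.0755 in KO DEN, and 0.0848, 0.0906, 0.0799 and 0.081 in KO DEN + PB. It was called lower in KO under DEN, at -0.93 ± 0.22 (adjusted p = 0.0305), but not without WT DEN replicate 3 (-0.74, adjusted p = 0.0927), and was at -0.05 ± 0.22 (adjusted p = 0.917) under DEN + PB. Cd8a, the co-receptor of cytotoxic T cells, read 0.0873, 0.0782, 0.0493 and 0.061 in WT DEN, and 0.0769, 0.0506, 0.13 and 0.0738 in WT DEN + PB. Cd8a measured 0.036, 0.0727, 0.0648 and 0.112 in KO DEN, and 0.156, 0.0827, 0.231 and 0.0694 in KO DEN + PB. It had the highest change of a member under DEN + PB, 0.62 ± 0.39 (adjusted p = 0.37), which did not pass, and was at -0.03 ± 0.39 (adjusted p = 0.977) under DEN. The remaining 8, Cd4, Il7r, Gzma, Gzmb, Nkg7, Klrb1c, Ccl5 and Cxcr6, lay between -0.92 and -0.04 under DEN and between -0.61 and 0.26 under DEN + PB.

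By an exact two-sided permutation test of 4 arrays against 4, all 33 calls of members, 8 and 22 between genotypes and 3 with PB in KO, were at p = 0.0286, the smallest that 70 assignments can give. On slides that held both groups, all 8 calls under DEN (2 slides) and all 22 under DEN + PB (4 slides) went the same way on each slide. This had to be so, because the arrays of the compared groups did not overlap for any called member. It therefore does not test an effect of the slides. Counted by arrays that did not overlap, 13 of the 43 members were lower in every KO array under DEN, against 6.34% of all genes, and 24 under DEN + PB, against 9.88%. The count of called members under DEN, 8 with all arrays, depended on single arrays. It was 5 without WT DEN replicate 1, WT DEN replicate 3, KO DEN replicate 1 or KO DEN replicate 2, the 5 without WT DEN replicate 3 being Adgre1, Vsig4, C1qc, Cd68 and Tyrobp, and under DEN + PB it was 15 to 22 with any array left out. With a normexp background correction in place of the scanner software's, 1 member was called under DEN and 2 under DEN + PB, when 0.0978% and 0.331% of all genes were called in either direction.

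PB called few of these genes within a genotype. In WT no member was called between DEN + PB and DEN, against 0.654% of all genes higher and 0.0827% lower. An unadjusted p under 0.05 in limma was found for 5 of the 43 members and for 1104 of all 13296 genes. In KO 12 of the 43 members and 1755 of all 13296 genes had an unadjusted p under 0.05 in limma. Of the 43 members, 3 were called lower in KO with PB and none higher, against 0.865% and 1.26% of all genes. The 3 were S100a9 (-1.42 ± 0.27 (adjusted p = 0.0114)), S100a8 (-1.30 ± 0.31 (adjusted p = 0.0415)) and Ms4a1 (-1.42 ± 0.26 (adjusted p = 0.00957)), and for each of them the 4 KO DEN + PB arrays lay below the 4 KO DEN arrays, as for 7 of the 43 members and 4.02% of all genes. Cd79b was just outside, at -1.10 ± 0.28 (adjusted p = 0.055), and was called at -1.10 (adjusted p = 0.00937) without WT DEN replicate 3. With the normexp correction of all spots none of the 3 was called, at -1.33 (adjusted p = 0.14) for S100a9 and -0.69 (adjusted p = 0.497) for Ms4a1. The S100a8 call was lost in 7 of 13 alternative ways of processing the arrays. Each of the 3 calls was in the same direction on the 3 slides that held both groups, which again follows from groups that did not overlap.

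**Figure D3:**
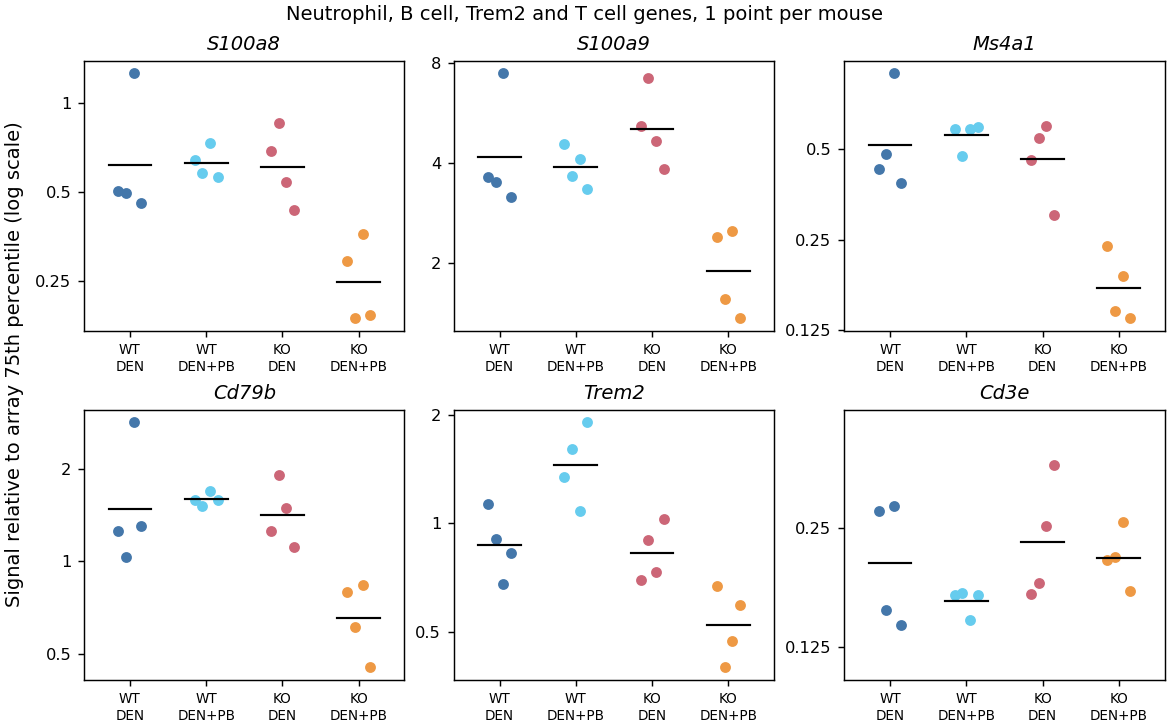
Signal relative to the 75th percentile of each array (log2-spaced axis) for 6 genes in the 4 groups, with 1 point per mouse and a black line at the mean of the log2 values. The KO DEN + PB points are the 4 lowest for S100a8, S100a9, Ms4a1, Cd79b and Trem2, and not for Cd3e.

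In WT the same 3 genes changed with PB by -0.10 ± 0.27 (adjusted p = 0.993) for S100a9, 0.02 ± 0.31 (adjusted p = 1) for S100a8 and 0.11 ± 0.26 (adjusted p = 0.993) for Ms4a1. The difference of the PB effects (WT minus KO) was 1.33 ± 0.39 for S100a9, 1.32 ± 0.44 for S100a8 and 1.52 ± 0.37 for Ms4a1, with adjusted p of 0.456, 0.534 and 0.302, so it did not pass for any of them. No member passed this test, as was so for all 13296 genes by their brightest probe. For this difference 9 of the 43 members and 879 of all 13296 genes had an unadjusted p under 0.05 in limma. The difference was above 0 for 30 of the 43 members, with a median of 0.36, against -0.04 for all genes tested, and within lists the median was 0.75 for myeloid, 0.27 for Kupffer, 1.37 for the 2 B cell, 0.36 for pan-leukocyte, 0.42 for antigen presentation and -0.27 for T and NK genes.

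The PB change of Trem2 had opposite signs in the 2 genotypes and passed in neither, at 0.74 ± 0.22 (adjusted p = 0.219) in WT and -0.67 ± 0.22 (adjusted p = 0.161) in KO. That of Itgam did likewise, at 0.48 ± 0.26 (adjusted p = 0.785) and -0.77 ± 0.26 (adjusted p = 0.184), but 3 of the 4 arrays of KO mice with PB did not have its probe well above background, and with normexp leaving out outlying backgrounds the changes were 0.0098 in WT and 0.085 in KO. No Kupffer gene passed with PB in WT, and 0 had an unadjusted p under 0.05 in limma, with PB values for Adgre1 of -0.07 ± 0.33 (adjusted p = 0.994), for Vsig4 of 0.01 ± 0.30 (adjusted p = 1) and for C1qc of -0.13 ± 0.18 (adjusted p = 0.976). In KO all 9 Kupffer genes were below 0 with PB, between -0.83 and -0.08, and none passed, while 3 had an unadjusted p under 0.05. Cx3cr1, a chemokine receptor of monocytes, had the highest PB change in WT, 1.48 ± 0.48 (adjusted p = 0.305), which was not called but passed with slides (1.86, adjusted p = 0.0314) or replicate numbers (1.48, adjusted p = 0.0425) as a block, as did its KO minus WT change under DEN with slides as a block (1.74, adjusted p = 0.0497). Its WT DEN replicate 3 value of 0.0122 was below all other arrays, of which the lowest was 0.0331. The Cx3cr1 probe was well above background on 3 of 4 arrays in WT DEN and in KO DEN + PB, and on 4 of 4 in the other groups. Another Cx3cr1 probe was well above background on 1 array and was not tested.

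**Figure D4:**
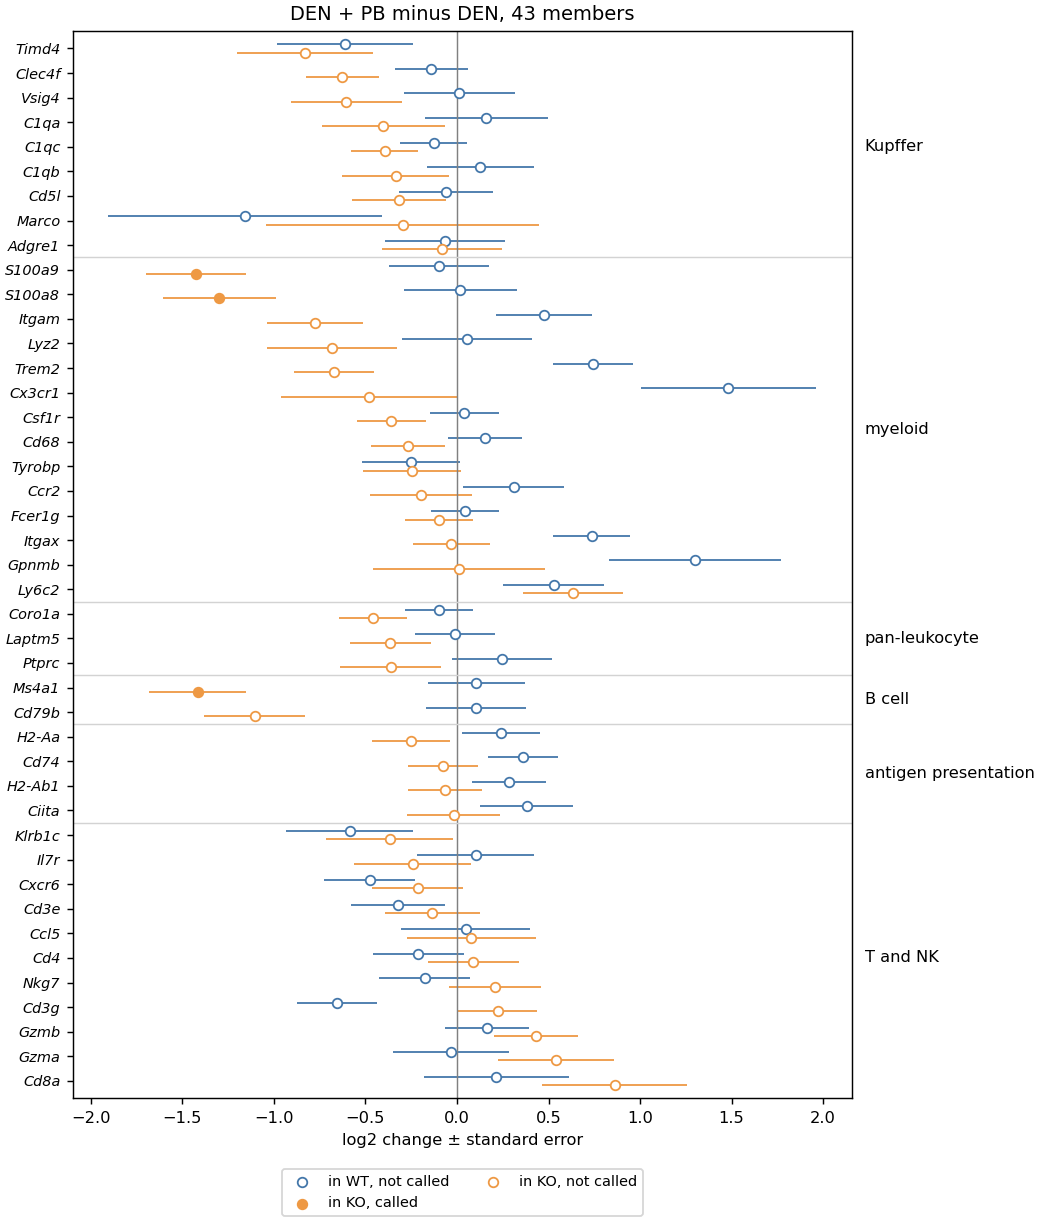
Log2 change with PB (DEN + PB minus DEN) with its standard error for the 43 members tested, in WT (blue) and in KO (orange), grouped by list and ordered by the change in KO; filled points were called. The 3 filled points are S100a9, S100a8 and Ms4a1 in KO, all to the left of 0, and no WT point is filled.

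Related genes outside the 46 were counted for comparison from wider lists of the same cell types. Of all genes tested, 1.7% were called lower in KO under DEN and 5.81% under DEN + PB. Of 15 other Kupffer cell genes, 6 were lower in KO under DEN, led by Fcna, a ficolin (-1.23 ± 0.21), Folr2 (-1.19 ± 0.23) and Hmox1, a heme oxygenase (-0.92 ± 0.20), and 7 were lower under DEN + PB. The 3 with the largest changes under DEN + PB were Folr2, a folate receptor (-1.76 ± 0.23), Axl, a receptor for apoptotic cells (-1.55 ± 0.20), and Siglec1, a sialic acid receptor (-1.43 ± 0.21). Of 11 Fc receptors and innate sensors, 4 were lower under DEN (Fcgr1, Fcgr3, Fcgr4 and Tlr7) and 8 under DEN + PB, led by Fcgr3, a low-affinity IgG receptor (-1.63 ± 0.19), Fcgr1, the high-affinity one (-1.28 ± 0.21), and Tlr7, a sensor of single-stranded RNA (-1.25 ± 0.22). Of 19 other leukocyte genes, 4 were lower under DEN, among them Cd53, Itgb2 and Ctss, and 9 under DEN + PB, among them Cd53 (-1.85 ± 0.22) and Ctss (-1.45 ± 0.22). None of these 3 lists held a gene called higher in KO.

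Genes of other lists were called as well, with all genes at 1.7% lower in KO under DEN and 5.81% under DEN + PB. The shares lower were 4.17% and 16.7% for chemokines and cytokines, and 12.5% and 50% for leukocyte adhesion genes. They were 11.1% and 33.3% for other class II and dendritic cell genes, and 12.5% and 37.5% for genes of lipid-associated macrophages. Among 24 chemokines and cytokines, Ccl6 was lower in KO under DEN, and Ccl24 (-1.72 ± 0.37), Ccl6 (-1.64 ± 0.24), Cxcl14 and Cxcl16 under DEN + PB. Of 8 leukocyte adhesion genes, Itgal was lower under DEN, and Itgal, Vcam1, Selplg and Icam2 under DEN + PB. Of 9 other class II and dendritic cell genes, Cd86 was lower under DEN, and Cd86, H2-DMa and H2-Oa under DEN + PB. Among 8 genes of lipid-associated macrophages, Lpl was lower in KO under DEN and higher with PB in KO (1.29 ± 0.24), Cd9 was lower with PB in KO (-1.08 ± 0.23), and Lgals3, Ctsk and Cd63 were lower in KO under DEN + PB.

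Of 8 other B and plasma cell genes, Fcrla (-1.31 ± 0.23) and Spib, a transcription factor of B cells (-1.17 ± 0.23), were lower with PB in KO, and Fcrla (-1.87 ± 0.23), Spib and Cd22 were lower in KO than in WT under DEN + PB. These were 25% and 37.5% of the list, against 0.865% and 5.81% of all genes. No gene of 12 other T and NK genes was called lower in any comparison, and Zap70, a kinase of the T cell receptor, was higher in KO under DEN + PB (0.98 ± 0.25). That is 8.33% of the list, against 1.73% of all genes called higher. Of 5 other neutrophil genes tested, of 11 listed, none was called in any comparison in limma, with 2 at an unadjusted p under 0.05 in KO with PB, and their median change in KO with PB was -0.96. Most neutrophil probes were dim, with 1 of 10 well above background on all 16 arrays.

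**Figure D5:**
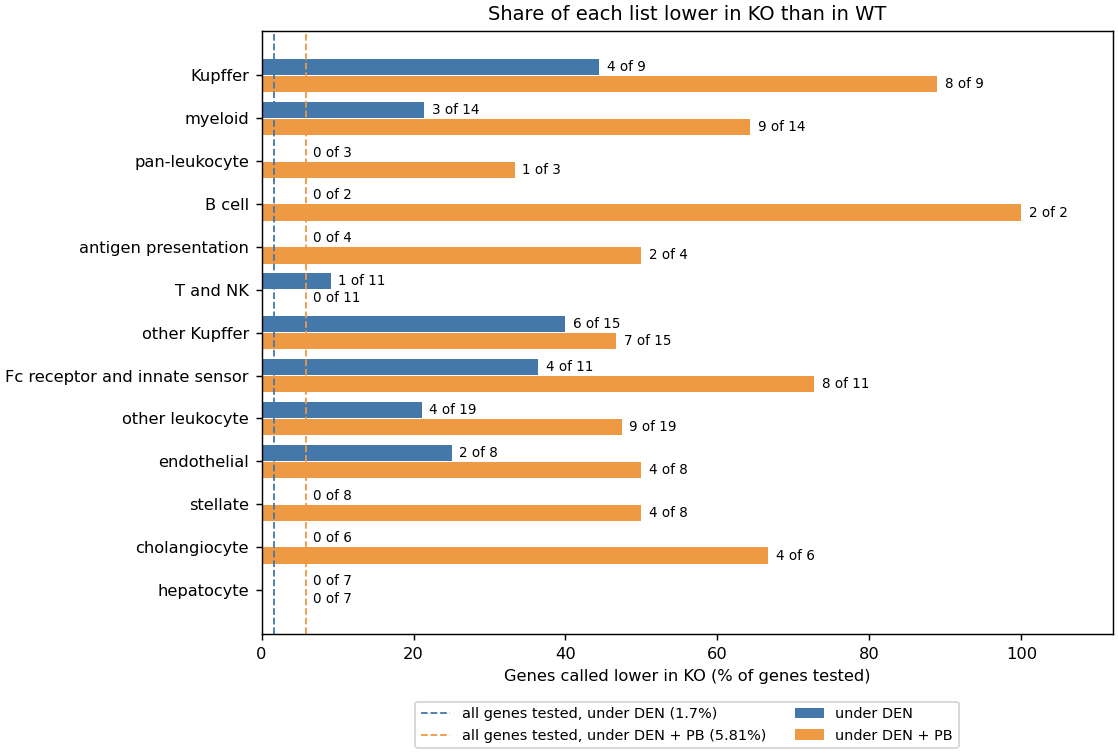
Share of each gene list called lower in KO than in WT, as a percentage of its genes tested, under DEN (blue) and under DEN + PB (orange), with the counts beside each bar. Dashed lines mark the share over all genes tested, 1.7% and 5.81%; Kupffer genes reach 4 of 9 and 8 of 9, while T and NK genes stay at 1 and 0 of 11.

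Markers of other liver cell types were also lower in KO, and their part in these results was not tested. Over all genes tested, 1.7% were called lower in KO under DEN, and under DEN + PB 5.81% lower and 1.73% higher. Of 8 endothelial markers, Pecam1 and Clec4g were lower under DEN, and Pecam1, Clec4g, Tek and Oit3 under DEN + PB. Their summed relative signal was 43.1 to 54.7 in WT DEN, 40.9 to 50.3 in WT DEN + PB, 21.3 to 36.4 in KO DEN and 21.9 to 25.6 in KO DEN + PB. Of 8 stellate cell markers, Dcn, Lrat, Reln and Lum were lower in KO under DEN + PB, and of 6 cholangiocyte markers Krt19, Krt7, Epcam and Cldn7 were. The summed stellate signal was 75.3 to 98.5 in WT DEN + PB and 50.5 to 60.8 in KO DEN + PB, and the cholangiocyte sum was 18 to 35.9 and 12.1 to 15.6. Krt19 and Krt7, keratins of bile duct cells, were higher with PB in WT (1.27 ± 0.19 and 1.16 ± 0.23). These were 2 of the 6 cholangiocyte markers, against 0.654% of all genes called higher with PB in WT. Of 7 hepatocyte markers none was lower in KO, and Tat, a tyrosine-degrading enzyme, was higher under DEN + PB (0.67 ± 0.19). Of 5 erythroid and platelet markers, Pf4, a platelet chemokine, was lower in KO under DEN + PB (-0.71 ± 0.21). For the lists described here, the summed signal of the 9 Kupffer genes was 66.6 to 238 in WT DEN, 82.3 to 96.4 in WT DEN + PB, 44.3 to 62.6 in KO DEN and 31.8 to 65.5 in KO DEN + PB, and that of the 11 T and NK genes was 2.76 to 4.85, 2.93 to 5.63, 2.19 to 3.89 and 2.51 to 5.69. Such sums weigh the brightest probes most. The 238 was that of WT DEN replicate 3, with Marco at 89.6 and Cd5l at 87.2. In KO DEN + PB the 65.5 included Marco at 30.3. The brightest T and NK gene was Ccl5, at 1.22 to 3.97.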

How the data were processed

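RNA of 16 mouse livers was hybridised to 16 Agilent arrays covering the mouse genome, labelled with Cy3 alone, 1 mouse per array, in 4 groups of 4 named by the genotype and treatment in the labels. Scanner files came from Agilent Feature Extraction 12.0.3.1. The processed signal in the deposited files is an intensity on a linear scale, background-corrected by that software and not scaled between arrays. A table of the whole series, also deposited, gives the same intensity averaged over the spots of each probe (99.8% of values within 0.01%).

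Spots with an outlier mark were left out (71 to 122 per array), spots of a probe were averaged, and log2 of the deposited intensity minus the 75th percentile of the array was used. The test took in each probe that all 4 arrays of some group measured well above background (24457 probes). Accessions of 28223 of 41174 probes (68.5%) matched a RefSeq gene table of GRCm38.p6, which served for names. A model of 4 group means was fitted with limma 3.58.1 (lmFit, eBayes) in R 4.3.3, with Benjamini-Hochberg adjustment over all probes tested, and was tested on simulated data. Genes were counted by their brightest probe. Figures were drawn in matplotlib 3.10.9.

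The members and all lists were chosen with earlier results of these data known. Named are the members called in any comparison, for each list without a call in a comparison the member with the largest change among those well above background on all arrays, and 7 genes that stand for the lists. Of other lists, called genes are named where there were up to 5, and otherwise the 3 with the largest changes. The values of 1 such gene are not reported here. Cx3cr1 and Gpnmb were named after their values were seen.

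Alternatives were 2 normexp background corrections (offset 50, on the median signal, since the files hold no mean signal column), 4 other scalings or tables, 2 filters, slide or replicate number as a block, the methods' linear model without moderation, fits of the compared groups alone, the mean of probes, and leaving out each array. Replicate numbers did not pair the arrays: the deviations of same-numbered arrays correlated at -0.21 to 0.35 over 24 pairs. Each mouse was 1 array, and the number of arrays limits the precision.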

Additional observations from a re-analysis of the deposited data

Results flagged for a closer look

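In groups of 4 arrays, a value was noted here when its distance to the nearest other array took up more of the group's whole range on the log2 scale than Dixon's 95% critical value. Of 172 groups of members, 16 had such a value, where chance alone gives about 1 in 20, or 8.6. All values are relative signals.

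WT DEN replicate 3 held 6 of the 16. Its values were 3.22 for Ptprc, where the other 3 arrays read 1.18 to 1.35, and 1.26 for S100a8, where they read 0.459 to 0.502. It read 7.44 for S100a9 (others 3.16 to 3.62), 12.5 for Adgre1 (others 3.98 to 4.29), 2.01 for Timd4 (others 0.618 to 0.691) and 6.85 for Vsig4 (others 3.14 to 3.33). Members called under DEN numbered 8 with this array and 5 without it.

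The other 10 were spread over 7 arrays. In WT DEN + PB, Lyz2 read 0.279 in replicate 3 (others 0.598 to 0.675), Cd3e 0.146 in replicate 3 (others 0.169 to 0.171), Nkg7 0.464 in replicate 4 (others 0.294 to 0.307) and Ms4a1 0.473 in replicate 2 (others 0.583 to 0.593). In KO DEN, replicate 1 was low for Gpnmb at 0.043 (others 0.0662 to 0.0718), for Marco at 6.71 (others 11.5 to 11.9) and for Nkg7 at 0.186 (others 0.335 to 0.371). Lyz2 read 0.106 in KO DEN replicate 2 (others 0.241 to 0.269), and H2-Ab1 read 8.21 in KO DEN replicate 4 (others 6.47 to 6.63). Gpnmb read 0.0952 in WT DEN replicate 1 (others 0.0405 to 0.0462).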

How the results depend on the processing

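Of the 33 calls of members, 33 were kept with scaling to the array median, 32 with the 75th percentile over probes well above background on all arrays, 31 with quantile scaling, 32 with the mean of probes, 27 with the compared groups alone, 26 with the methods' linear model, 26 with slide as a block, 26 with the unscaled series table and 24 without a filter. Under normexp 3 were kept, and 27 when normexp left out spots with outlying background, where Itgam in KO minus WT under DEN + PB was 0.067 (adjusted p = 0.792) in place of -1.01. The cause was not tested.

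Members called under DEN numbered 8, and 1 under normexp, 1 with the unscaled table, 5 without a filter, 5 with the methods' linear model and 4 with the compared groups alone. Under DEN + PB there were 22, and 2 under normexp, and with PB in KO there were 3, and 0 under normexp. With PB in WT there were 0, and 1 (Cx3cr1) with slide as a block and 1 (Cx3cr1) with the replicate block. In the model with the replicate block there were otherwise 4 with PB in KO, 7 under DEN, 20 under DEN + PB and 0 for the difference of PB effects, and 30 of the 33 calls were kept.

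With each array left out in turn, 5 to 9 members were called under DEN, 15 (without KO DEN + PB replicate 4) to 22 under DEN + PB, 2 to 4 with PB in KO, and 0 to 0 with PB in WT and for the difference of PB effects. Csf1r and Cd5l under DEN were each lost in 13 of these 16 fits and S100a8 with PB in KO in 10, while Adgre1, Vsig4, Cd68, C1qc and Tyrobp were lost in 0 under either treatment. Without scaling between arrays the median of all genes moved to -0.29 with PB in KO, -0.31 in KO minus WT under DEN + PB and 0.35 for the difference of PB effects. Dim probes, such as those of Cd79a, Itgam and most neutrophil genes, limit what can be measured for those cells.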
